A study of Mus musculus with 10 samples.

Results

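Gene expression in the brain hemisphere on the operated side was compared between mice carrying an Hsp72 transgene (Hsp72Tg) and wild-type (WT) mice, at 24 h from occlusion of the middle cerebral artery (MCAO), which models ischaemic stroke. The comparison rests on 6 of the 10 arrays of the series, chosen by their titles, namely 3 Hsp72Tg MCAO arrays and 3 WT MCAO arrays, and covers 18193 genes. Differences shared by all 3 Hsp72Tg MCAO arrays were described separately from those of the array labelled Hsp72Tg MCAO 1, although the gene Pmch fell in both sets. That array carried less of the occlusion response than Hsp72Tg MCAO 2 and 3. Hsp72Tg MCAO 2 also had many genes apart from the other MCAO arrays. The other 4 arrays, 2 from WT and 2 from Hsp72Tg mice after sham surgery, entered the estimate of the spread and gave a reading of the genotype in tissue without occlusion.

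All mice were male, and total RNA came from the whole hemisphere, so every array mixes infarcted and spared tissue. In such bulk tissue, fewer cells of a type and less RNA per cell cannot be told apart. The construct, promoter and species of the transgene, the strain and age of the mice and the length of the occlusion are not stated in the labels. These number the arrays within a group but do not say that each number is a separate animal, so the p-values measure the spread between these samples, which may be partly technical.

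Hsp72 is the stress-inducible member of the Hsp70 family of chaperones, which bind unfolded proteins and help them refold. It is encoded by the neighbouring genes Hspa1a and Hspa1b, which heat shock factor 1 switches on through short repeated promoter elements, and the ischaemic brain is known to induce both strongly. The middle cerebral artery feeds the striatum and the lateral cortex, while the thalamus and hippocampus are fed largely by other arteries. Values are given as deposited, on the log2 scale, where a difference of 1 is a 2-fold difference, and every difference is Hsp72Tg minus WT with its standard error (SE) unless stated otherwise.

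The promoters of Hspa1a and Hspa1b are shown because both genes encode the protein the transgene adds and are targets of the stress response. They are the 250 bases before each start, 5′ to 3′ on the gene's strand, from RefSeq on GRCm38.p6. Hspa1a lies at chr17:34972157-34972406 on the minus strand and Hspa1b at chr17:34959239-34959488 on the minus strand. Capitals mark the fixed letters of GAANNTTC or TTCNNGAA, the core of a heat shock element, searched on both strands, which each reads the same.
Hspa1a: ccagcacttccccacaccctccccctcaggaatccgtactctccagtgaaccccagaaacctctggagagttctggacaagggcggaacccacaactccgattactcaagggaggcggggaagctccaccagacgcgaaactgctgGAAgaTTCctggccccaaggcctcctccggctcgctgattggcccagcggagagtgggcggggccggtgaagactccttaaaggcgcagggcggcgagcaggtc
Hspa1b: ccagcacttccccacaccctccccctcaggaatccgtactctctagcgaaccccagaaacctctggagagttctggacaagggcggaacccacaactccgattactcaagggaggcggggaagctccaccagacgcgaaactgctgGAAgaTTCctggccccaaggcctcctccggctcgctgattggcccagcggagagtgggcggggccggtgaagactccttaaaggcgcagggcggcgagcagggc
Each promoter held 1 such match, whose first base lay 104 bases before the start. A match occurred in 12.8% of 32851 promoters of that length, so it describes these letters and is not evidence of a site. The promoters differed at 3 of 250 bases, and the transcripts of these neighbouring copies are near-identical too, so their probe sets may each read both genes.

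The level of Hspa1a was 10.62, 11.57 and 11.27 on WT MCAO arrays 1 to 3 and 10.63, 13.23 and 12.11 on Hsp72Tg MCAO arrays 1 to 3. Hspa1b gave 11.85, 12.84 and 12.73 on the WT MCAO arrays and 12.05, 13.96 and 13.09 on the Hsp72Tg MCAO arrays. For both genes Hsp72Tg MCAO 2 and 3 lay above all 3 WT MCAO arrays, while Hsp72Tg MCAO 1 lay among the WT values. The difference was 0.84 (SE 0.52, n = 3 against 3) for Hspa1a and 0.56 (SE 0.41) for Hspa1b. Neither passed, with an exact two-sided permutation p of 0.4 for each, where 3 against 3 arrays cannot go below 0.1. Without Hsp72Tg MCAO 1 the differences were 1.52 (SE 0.33, limma adjusted p = 0.25) and 1.05 (SE 0.30, limma adjusted p = 0.361), and over all fits that left out 1 array they ran from 0.22 to 1.52 and from 0.10 to 1.05.

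After sham surgery Hspa1a stood at 8.54 and 8.45 in WT and at 8.28 and 8.53 in Hsp72Tg. Hspa1b stood at 9.38 and 9.48 in WT and at 9.12 and 9.15 in Hsp72Tg. In both genes the sham values of Hsp72Tg were thus not above those of WT, and for Hspa1b both lay below. Whether these probe sets can read the transgene's transcript is not stated in the labels, so they do not check the genotype labels.

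**Figure D1:**
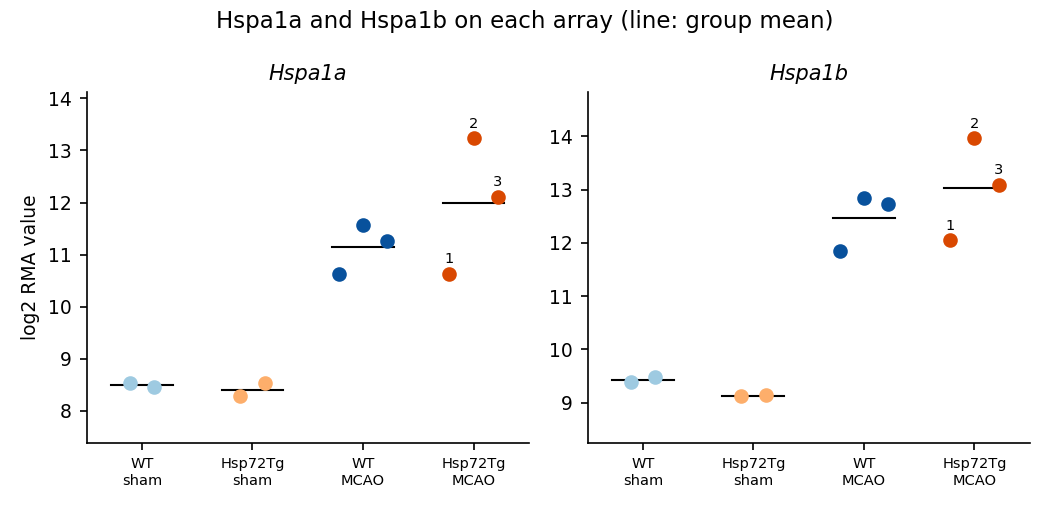
Log2 RMA values (y axis) of Hspa1a and Hspa1b in the 4 groups (x axis), 1 point per array, with a line at the group mean and the replicate number beside each Hsp72Tg MCAO array. Hsp72Tg MCAO 2 and 3 lie above all WT MCAO arrays in both panels, Hsp72Tg MCAO 1 lies among them, and the Hsp72Tg sham arrays are not above the WT sham arrays.

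Before the results, 2 features of the arrays need to be stated, since they touch every value below. Hsp72Tg MCAO 1 correlated with the other MCAO arrays across genes at r between 0.9828 and 0.9921, against 0.9885 to 0.9969 among those 5. It also carried less of the occlusion response. Across the 18193 genes, which are not independent replicates, the change of each Hsp72Tg MCAO array from the Hsp72Tg sham mean was set against the change from sham to MCAO in WT, which uses none of the same arrays. The correlation was 0.303 with a slope of 0.21 for Hsp72Tg MCAO 1, 0.656 with a slope of 0.97 for Hsp72Tg MCAO 2 and 0.79 with a slope of 1.02 for Hsp72Tg MCAO 3.

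The second feature concerns Cap1, which encodes an actin-binding protein, and Tmem87a, a membrane protein gene. Cap1 read 10.14 and 10.33 on the Hsp72Tg sham arrays and 10.57 on Hsp72Tg MCAO 1. It read 6.32 and 6.28 on Hsp72Tg MCAO 2 and 3, 6.49, 6.55 and 6.59 on the WT MCAO arrays and 5.91 and 6 on the WT sham arrays. Tmem87a followed the same split, at 8.51, 8.69 and 8.72 on the first set and at most 6.83 on the other 7 arrays. These were the 2 genes of all 18193 in which those 3 arrays lay at least 2-fold from the other 7. On these genes the arrays labelled Hsp72Tg MCAO 2 and 3 read like WT, and what sets this split was not tested. Directions below are therefore those of the labels. Of the 18193 genes, 24 were higher and 54 lower on all 5 Hsp72Tg arrays than on all 5 WT arrays, and the widest such gap was 0.19, for Gjc3. No gene thus separated the labelled genotypes by a wide margin over both surgeries. WT sham 1 carried cerebellar transcripts, with Gabra6 at 9.46 and Pcp2 at 9.87, beside at most 4.49 and 5.92 on the other 9 arrays, which bears on contrasts that use the sham arrays.

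Across all genes, no gene passed between Hsp72Tg and WT after MCAO with limma at a Benjamini-Hochberg adjusted p under 0.05 (0 of 18193, 0%, lowest adjusted p 0.838). At an unadjusted limma p under 0.05 there were 487 genes, 162 higher and 325 lower in Hsp72Tg. The median half-width of the 95% interval of a difference was 0.26. The same contrast after sham surgery passed 0 genes, with 283 at an unadjusted p under 0.05. The difference between the contrasts after MCAO and after sham surgery also passed 0 genes, with 319 at an unadjusted p under 0.05. In that test 2 genes passed with limma without Hsp72Tg MCAO 1 (0.011%), Cap1 and Tmem87a. Without WT sham 2, where WT sham 1 is the only WT sham array, 2 genes passed as well, Gabra6 and Pcp2.

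Differences shared by all 3 Hsp72Tg MCAO arrays were counted where those arrays lay on 1 side of all 3 WT MCAO arrays. This held for 501 genes that were higher (2.75%) and 853 that were lower (4.69%) in Hsp72Tg. With 3 against 3 arrays such separation has an exact two-sided permutation p of 0.1 for any gene, so alone it is not evidence of a genotype difference. With a mean difference of at least 1.5-fold, 4 higher (0.022%) and 26 lower (0.143%) genes were left, and at 2-fold 1 higher (0.0055%) and 3 lower (0.0165%). The 4 genes past 2-fold were 1500004A13Rik at 1.04 (SE 0.35), Shisa6 at -1.12 (SE 0.19), G530011O06Rik at -1.31 (SE 0.55) and Pmch at -1.41 (SE 0.67). G530011O06Rik read 9.5, 8.26 and 7.46 in WT and 7.37, 7.04 and 6.88 in Hsp72Tg after MCAO, so its WT arrays were spread widely. The nearest gene within the 2-fold line was Hectd2 at -0.90. Shared differences were thus mostly small and more often toward lower values in Hsp72Tg. Over all genes, too, more were lower (10191) than higher (8002) in value.

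The shared lower genes were led by Trpc4, a calcium-permeable cation channel gene, which had the smallest p of all genes. Trpc4 read 8.56, 8.56 and 8.67 on the WT MCAO arrays and 8.12, 7.89 and 7.85 on Hsp72Tg MCAO arrays 1 to 3, a difference of -0.64 (SE 0.09, limma adjusted p = 0.838). The sham arrays lay between, from 8.17 to 8.25. Dimmer probe sets of Trpc4 differed by -0.31 and -0.18 after MCAO. Mamdc2, which encodes an extracellular matrix protein, read 7.20, 7.16 and 6.86 in WT and 6.43, 6.30 and 6.43 in Hsp72Tg, a difference of -0.69 (SE 0.11, limma adjusted p = 0.856). Here too the groups did not overlap.

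Shisa6, an auxiliary subunit gene of AMPA-type glutamate receptors, read 8.59, 8.20 and 8.40 in WT and 7.51, 7.36 and 6.97 in Hsp72Tg after MCAO. Its difference was -1.12 (SE 0.19, limma adjusted p = 0.922), and all 3 Hsp72Tg MCAO arrays lay clearly below all 3 WT MCAO arrays, whereas the larger difference of Pmch came mainly from 1 array. Pkp2, a desmosome plaque gene, read 8.63, 8.19 and 8.22 against 7.74, 7.39 and 7.59, a difference of -0.77 (SE 0.14). Synpo2, which encodes an actin-associated protein, read 8.17, 7.98 and 8.15 against 7.71, 7.27 and 7.34, a difference of -0.66 (SE 0.12). On Pkp2 and Synpo2 every Hsp72Tg MCAO array was below every WT MCAO array, and the limma adjusted p of both was 1. These values are of the brightest probe set. The other, dimmer ones differed by -0.46, -0.34 and -0.01 for Pkp2 and by -0.15, -0.06 and -0.02 for Synpo2. That of Shisa6 differed by -0.76.

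On the higher side, the 5 named genes with the smallest p differed by 0.38 to 0.50, all with a limma adjusted p of 1. Cd6, a lymphocyte receptor gene, read 6.24, 6.26 and 6.29 in WT and 6.63, 6.62 and 6.68 in Hsp72Tg, a difference of 0.38 (SE 0.08). Dap3, a mitochondrial ribosome subunit gene, differed by 0.48 (SE 0.11). Gjc3, which encodes a gap junction protein of myelinating glia, read 6.41, 6.26 and 5.98 in WT and 6.71, 6.68 and 6.68 in Hsp72Tg, a difference of 0.47 (SE 0.11), and after sham surgery it differed by 0.29 in the same direction. Its other, dimmer probe set differed by -0.06 (SE 0.16) after MCAO. Ankub1 and Sohlh2 differed by 0.50 (SE 0.14) and 0.38 (SE 0.11). None of the 5 groups of values overlapped between genotypes after MCAO.

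**Figure D2:**
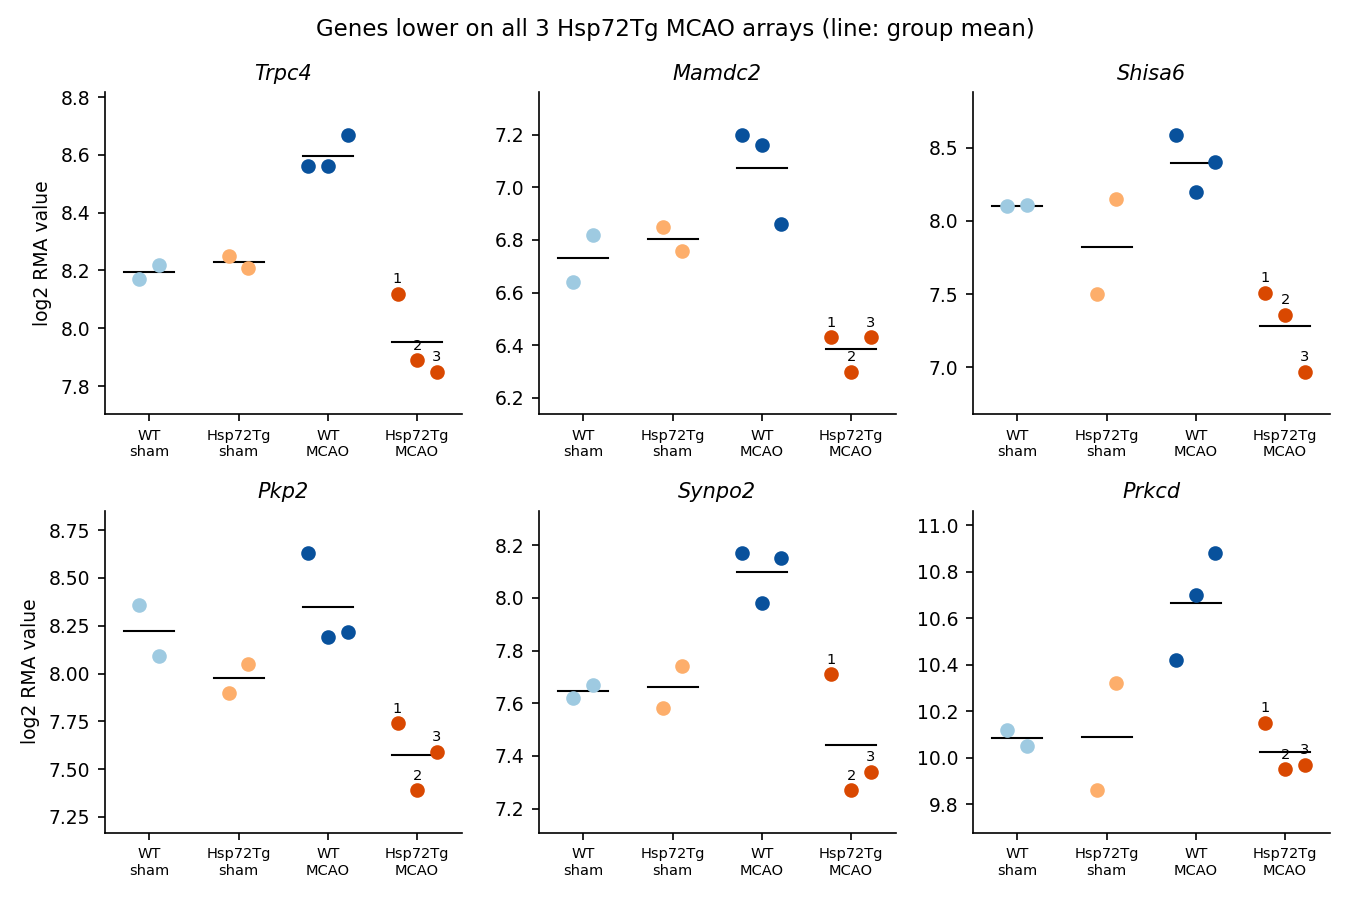
Log2 RMA values (y axis) of 6 genes lower on all 3 Hsp72Tg MCAO arrays, by group (x axis), 1 point per array, with a line at the group mean and the replicate number beside each Hsp72Tg MCAO array; the y axes do not start at 0. In each panel the Hsp72Tg MCAO points lie below all WT MCAO points, with Trpc4 at 7.85 to 8.12 against 8.56 to 8.67, while the sham arrays of the genotypes lie close together or overlap.

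The sham arrays did not choose these genes and gave a second reading of them. Of the 30 genes shared at 1.5-fold or more, 16 had the same sign in sham arrays. Only 5 of them also showed no overlap there in the same direction, and 2 showed no overlap in the opposite direction, beside 27% of all genes whose 2 against 2 sham arrays did not overlap. The median size of the difference was 0.71 after MCAO, and in sham arrays it was 0.02 in the direction seen after MCAO. By array, the 26 lower genes had medians of -0.50, -0.94 and -0.74 against the WT MCAO mean on Hsp72Tg MCAO 1, 2 and 3. Hsp72Tg MCAO 1 was the highest of the 3 in 18 of them. Of the 30 genes, 25 stayed at 1.5-fold or more in the same direction without Hsp72Tg MCAO 1.

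Genes known as markers of the thalamus, the relay region between sense organs and cortex, were lower in value in 9 of 10 cases, although none passed. In 7 of the 10 (Ntng1, Plekhg1, Prkcd, Rora, Slc17a6, Synpo2 and Zic1) all Hsp72Tg MCAO arrays lay below all WT MCAO arrays, beside the 4.69% of all genes. This list, like the others, was chosen with earlier results of these data known, so the count is a description and not independent evidence. The median difference of the list was -0.49, against -0.02 over all genes, and it was -0.36 without Hsp72Tg MCAO 1 and 0.00 in sham arrays. Prkcd, which encodes protein kinase C delta, read 10.42, 10.70 and 10.88 in WT and 10.15, 9.95 and 9.97 in Hsp72Tg, a difference of -0.64 (SE 0.14, limma adjusted p = 1). Slc17a6, the glutamate transporter gene of subcortical neurons, read 10.89, 10.84 and 10.83 against 10.50, 10.28 and 10.76. Zic1, a transcription factor gene, read 10.59, 10.98 and 10.49 against 9.60, 10.10 and 10.49, so that Hsp72Tg MCAO 3 lay level with the lowest WT value. Tcf7l2 and Lef1, which encode transcription factors of the same list, differed by -0.06 and 0.09 and overlapped. The list mean relative to the WT MCAO mean was -0.46, -0.48 and -0.25 on Hsp72Tg MCAO 1, 2 and 3, outside the -0.07 to 0.04 of the WT MCAO arrays.

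The array labelled Hsp72Tg MCAO 1 had a set of differences of its own, and so did Hsp72Tg MCAO 2. It lay at least 2-fold above the other 5 MCAO arrays in 11 genes (0.0605%) and at least 2-fold below them in 63 (0.346%). The same count gave 52 higher (0.286%) and 27 lower (0.148%) genes for Hsp72Tg MCAO 2, and 0 higher and 1 lower for Hsp72Tg MCAO 3. Among the WT MCAO arrays it gave 4 and 0, 15 and 1, and 0 and 0. On most of these genes Hsp72Tg MCAO 1 lay nearer to sham levels than to the other MCAO arrays. Its 63 low genes had a median of 7.19 there, against 6.87 and 6.92 for the Hsp72Tg and WT sham means, 9.12 for the WT MCAO mean and 9.93 and 9.63 on Hsp72Tg MCAO 2 and 3. Of the 63, 60 lay nearer the mean of the 4 sham arrays than the mean of the other 5 MCAO arrays, and so did all 11 high genes. Fewer lay within the range of the sham arrays, 17 of the 63 low genes and 5 of the 11 high genes.

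The genes low on Hsp72Tg MCAO 1 alone included injury and inflammation genes. Il6, the gene of the cytokine interleukin 6, read 8.15, 8.06 and 8.57 on the WT MCAO arrays, 4.43 on Hsp72Tg MCAO 1 and 9.29 and 8.29 on Hsp72Tg MCAO 2 and 3. The sham arrays ran from 4.39 to 4.77, so Hsp72Tg MCAO 1 was within their range. Lcn2, the gene of the iron-binding protein lipocalin 2 that reactive astrocytes make, read 10.48, 9.84 and 10.67 in WT and 6.79, 12 and 11.06 in Hsp72Tg. Its difference was -0.38 (SE 1.06), and 1.20 (SE 0.37) without Hsp72Tg MCAO 1, so that this array set the sign. S100a8 and S100a9, whose products form the calprotectin of neutrophils, read 6.20 and 5.93 on Hsp72Tg MCAO 1 and at least 8.61 on the other 5 MCAO arrays. Cxcl2, a neutrophil attractant gene, read 6.79, 6.87 and 8.08 in WT and 4.42, 10.85 and 8.53 in Hsp72Tg. Emp1, a membrane protein gene of reactive astrocytes, and Cd14, an endotoxin co-receptor gene, read 6.42 and 7.99 on Hsp72Tg MCAO 1, at least 9.07 and 10.35 on the other MCAO arrays and at most 5.87 and 7.21 on the sham arrays. For Il6, Lcn2, S100a8, S100a9, Emp1 and Cd14 the sign of the genotype difference turned without this array.

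The high genes of Hsp72Tg MCAO 1 included striatal neuron and microglia genes besides Cap1 and Tmem87a. Drd2, the dopamine D2 receptor gene, read 8.71 there, 7.27 to 7.46 on the other 5 MCAO arrays and 8.08 to 8.60 on the sham arrays. Pde10a, a phosphodiesterase gene of striatal projection neurons, read 10.93, against 9.33 to 9.76 and 10.71 to 10.91. Gpr6, a receptor gene of the same neurons, read 8.37, against 5.95 to 6.72 and 8.28 to 8.70. P2ry12 and Gpr34, receptor genes of resting microglia, read 8.38 and 7.37 there and at most 7.21 and 5.84 on the other MCAO arrays. Syndig1l read 9.13, against at most 7.93. On each of these genes Hsp72Tg MCAO 1 lay close to or within the sham values.

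**Figure D3:**
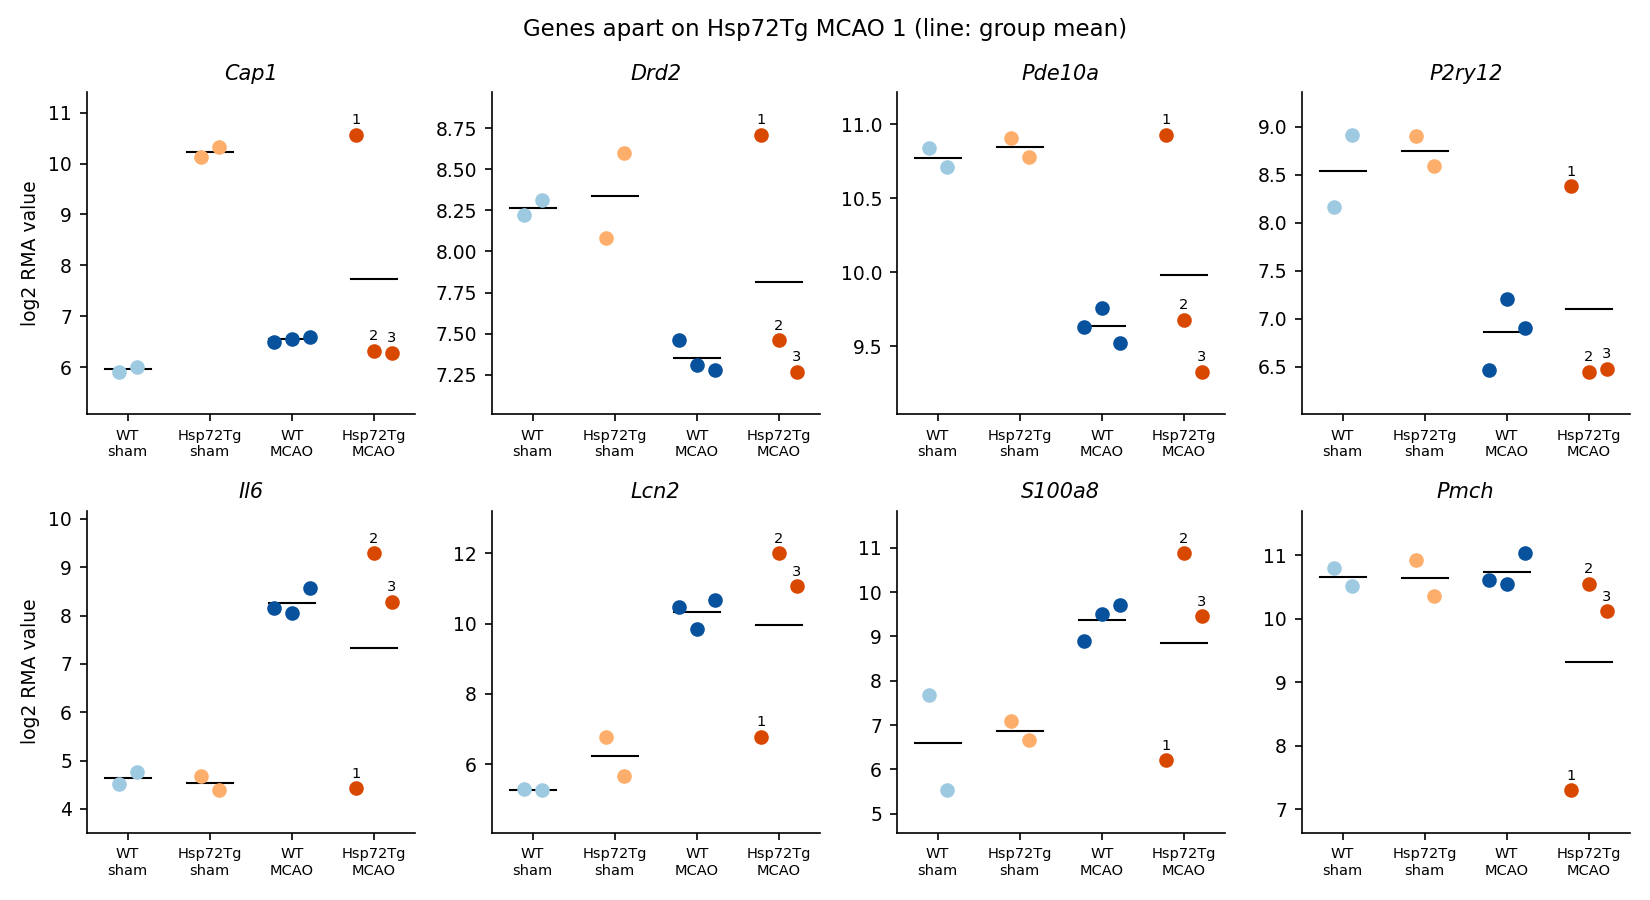
Log2 RMA values (y axis) of 8 genes in which Hsp72Tg MCAO 1 stood apart, by group (x axis), 1 point per array, with a line at the group mean and the replicate number beside each Hsp72Tg MCAO array; the y axes do not start at 0. For Drd2, Pde10a, P2ry12, Il6, Lcn2 and S100a8, Hsp72Tg MCAO 1 lies near the sham arrays; for Cap1 it lies with the Hsp72Tg sham arrays, and for Pmch, at 7.30, below every other array.

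Markers of brain regions were also apart on this array. All 10 measured striatal projection neuron markers were higher in value in Hsp72Tg, with a median difference of 0.51. This was 1.30 on Hsp72Tg MCAO 1 alone and 0.17 without it, and 9 of the 10 were highest on that array, beside 21.1% of all genes. Ppp1r1b, which encodes the dopamine-regulated phosphatase inhibitor DARPP-32, read 10.12, 9.76 and 9.79 in WT and 11.20, 10.53 and 9.99 in Hsp72Tg. Scn4b, a sodium channel subunit gene, read 9.77, 9.87 and 9.36 against 11.18, 10.03 and 9.59. Rgs9, a regulator of dopamine receptor signalling, was the single member without overlap, at 8.51, 8.67 and 8.48 against 9.71, 8.98 and 8.74.

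Hypothalamic peptide genes were low on the same array. Pmch, the gene of melanin-concentrating hormone, read 10.61, 10.55 and 11.03 in WT and 7.30, 10.55 and 10.12 in Hsp72Tg, while the sham arrays ran from 10.35 to 10.92. Its difference of -1.41 (SE 0.67) was -0.40 without Hsp72Tg MCAO 1. Hcrt, the orexin gene, read 6.72 on that array and 7.77 to 8.17 on the other 9. Avp and Cartpt, the genes of vasopressin and of a feeding-related peptide, read 6.77 and 6.82 there and at least 7.95 and 7.53 on the other MCAO arrays. For Pmch and Hcrt this array thus lay below the sham arrays as well as below the other MCAO arrays. The median of the 10 measured hypothalamic and pituitary genes was -0.19, and 0.06 without this array.

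Astrocyte genes were of interest to the study. General astrocyte markers differed little in size, with 14 of 18 higher in value, a median of 0.07 and 0 passing. On Hsp72Tg MCAO 2 and 3, 7 of the 18 lay above all WT MCAO arrays, beside 9.65% of all genes. The median without Hsp72Tg MCAO 1 was 0.12. S100b, a calcium-binding protein gene, differed by 0.22 (SE 0.10), and Aqp4, the water channel gene of astrocyte end-feet, by -0.17 (SE 0.18). Genes of the pan-reactive state, which astrocytes take up after many injuries, had a median difference of -0.33, and 12 of 13 were lowest on Hsp72Tg MCAO 1, beside 20.1% of all genes. The medians were -0.29 for the genes of the A2 state, described after ischaemia, and -0.08 for those of the A1 state, described after inflammation. Without Hsp72Tg MCAO 1 the 3 medians were 0.12, 0.22 and 0.27, so that each changed sign, while the median over all genes stayed at -0.02. Gfap, the intermediate filament gene of reactive astrocytes, was the exception, at 12.08 on that array, within the 11.94 to 12.21 of WT, and at 11.31 on Hsp72Tg MCAO 2. Timp1, a protease inhibitor gene, read 9.65, 10.35 and 10.33 in WT and 7.96, 9.95 and 10.19 in Hsp72Tg. Cd44, a hyaluronan receptor gene, read 9.60, 9.62 and 9.87 against 8, 9.63 and 10.01.

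**Figure D4:**
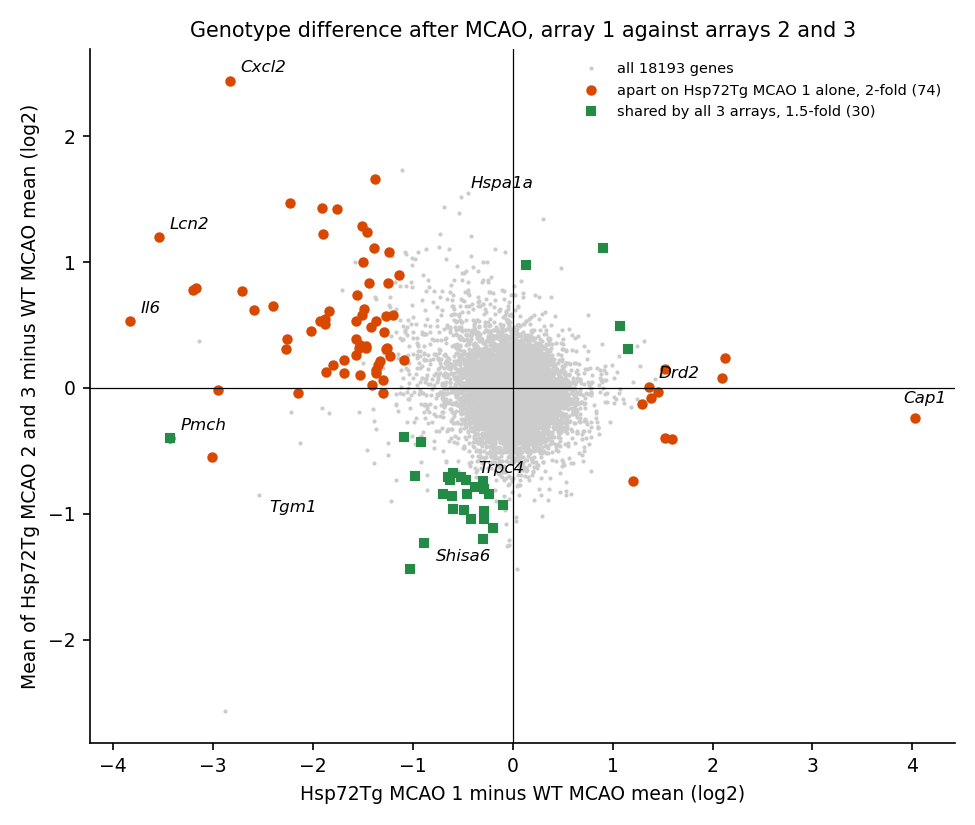
Difference from the WT MCAO mean (log2) on Hsp72Tg MCAO 1 (x axis) and as the mean of Hsp72Tg MCAO 2 and 3 (y axis), 1 point per gene for 18193 genes, where both axes share the WT MCAO arrays. The 11 high and 63 low genes of Hsp72Tg MCAO 1 alone lie to the right and left along the x axis, and of the 30 shared genes 26 lie in the lower left and 4 in the upper right.

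Without Hsp72Tg MCAO 1, 0 genes passed with limma (lowest adjusted p 0.0641), and 1610 genes had an unadjusted p under 0.05, 621 higher and 989 lower, against 487 with it. At an adjusted p under 0.1 there were 7 higher and 9 lower genes. The 2 remaining Hsp72Tg MCAO arrays lay above all 3 WT MCAO arrays in 9.65% of all genes and below them in 15.4%.

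Higher on these 2 arrays was Cxcl10, an interferon-induced chemokine gene, at 7.44, 7.86 and 7.81 in WT, 7.26 on Hsp72Tg MCAO 1 and 9.66 and 8.86 on Hsp72Tg MCAO 2 and 3. Its difference was 1.55 (SE 0.21, limma adjusted p = 0.068) without Hsp72Tg MCAO 1 and 0.89 (SE 0.47, limma adjusted p = 1) with it. Gadd45b, a stress-induced growth arrest gene, read 10.00, 9.98 and 10.34 in WT and 8.72, 11.46 and 10.97 in Hsp72Tg. Helz2, a transcriptional coactivator gene, Sgms2, a sphingomyelin synthase gene, and Blnk, an adaptor gene of B cell signalling, differed by 0.74, 0.97 and 0.86 without Hsp72Tg MCAO 1, each with a limma adjusted p of 0.068. In Cxcl10, Gadd45b, Helz2, Sgms2 and Blnk alike, Hsp72Tg MCAO 1 lay below every WT MCAO array.

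Lower on these 2 arrays were Sema3e, an axon guidance gene, Rspo2, a Wnt pathway activator gene, and Lrrtm1, a synapse organiser gene. Sema3e read 8.98, 9.13 and 9.08 in WT, 8.86 on Hsp72Tg MCAO 1 and 7.86 and 8.04 on Hsp72Tg MCAO 2 and 3. Rspo2 read 9.21, 8.96 and 9.17 in WT and 9.15, 8.15 and 7.96 in Hsp72Tg. Lrrtm1 read 9.87, 9.60 and 9.58 against 9.57, 8.69 and 8.81. Without Hsp72Tg MCAO 1 the differences were -1.11 (SE 0.13), -1.06 (SE 0.13) and -0.93 (SE 0.12), each with a limma adjusted p of 0.0641, as for Trpc4 and Synpo2. With all arrays, dimmer probe sets differed by -0.63, -0.46 and -0.34 for Sema3e, -0.04 for Rspo2, and -0.59 and 0.10 for Lrrtm1. The probe sets used differed by -0.81, -0.70 and -0.65 in that fit. Hippocampal markers, a list chosen after values were seen, were lower without overlap on these 2 arrays in 8 of 18 cases, beside 15.4% of all genes, with a median of -0.21 and list means of -0.31 and -0.45 from the WT MCAO mean. On Hsp72Tg MCAO 1 that list mean was 0.02. Among them Neurod6, a transcription factor gene of pyramidal neurons, read 10.03, 9.23 and 9.36 in WT and 9.50, 8.51 and 8.09 in Hsp72Tg. Cortical layer markers, also listed after values were seen, had a median of 0.02, or -0.06 without Hsp72Tg MCAO 1. On that array alone it was 0.23, and 9 of 15 were highest there, beside 21.1% of all genes.

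Most endothelial activation genes had higher values on Hsp72Tg MCAO 2 and 3, although none passed. Of the 10 measured, 8 lay above all WT MCAO arrays on both, beside 9.65% of all genes, and 8 were lowest on Hsp72Tg MCAO 1, beside 20.1%. Their median difference was 0.57 without Hsp72Tg MCAO 1, 0.05 with it and -1.10 on that array alone. Icam1, a leukocyte adhesion receptor gene, read 7.32, 7.28 and 7.82 in WT and 5.71, 9.53 and 8.24 in Hsp72Tg. Plaur, the urokinase receptor gene, read 7.77, 8.02 and 8.26 against 7.01, 9.43 and 8.66. Vwf, the von Willebrand factor gene, went the other way on Hsp72Tg MCAO 2, at 8.25 against 9.30 to 9.63 in WT. Endothelial and blood-brain barrier markers had a median of -0.04. Slco1a4, a transporter gene of brain endothelium, read 10.06, 10.04 and 9.76 in WT and 10.25, 8.30 and 9.57 in Hsp72Tg, so its difference of -0.58 came mainly from Hsp72Tg MCAO 2.

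Cytokines and chemokines (22 genes) had a median difference of 0.08, which was 0.38 without Hsp72Tg MCAO 1 and -0.55 on that array alone, with 16 of 22 lowest there, beside 20.1% of all genes. The heat shock protein and co-chaperone list (26 genes) had a median of 0.01, with 15 higher and 11 lower in value and none without overlap. By array it was not flat, with list means of -0.22, 0.47 and 0.03 from the WT MCAO mean on Hsp72Tg MCAO 1, 2 and 3. Of the 26, 13 were lowest on Hsp72Tg MCAO 1, beside 20.1% of all genes. On Hsp72Tg MCAO 2 and 3, 7 lay above all WT MCAO arrays, beside 9.65%, and 1 below, beside 15.4%. Cryab, which encodes the small heat shock protein alpha B-crystallin, read 11.33, 11.21 and 11.25 in WT and 10.53, 12.96 and 12.01 in Hsp72Tg. Dnajb1, a partner of Hsp70, read 10.94, 11.10 and 10.97 against 10.61, 12.85 and 11.08, so that its difference of 0.51 came mainly from Hsp72Tg MCAO 2. Hsp90aa1 and Hspa8, abundant chaperone genes, differed by -0.02 and 0.03. Immediate early genes (25 genes), which neurons switch on within minutes of activity, had 22 higher in value after MCAO with a median of 0.16. In sham arrays their median was 0.78. Their list mean was 1.03 above the WT MCAO mean on Hsp72Tg MCAO 2, -0.40 on Hsp72Tg MCAO 1 and 0.01 on Hsp72Tg MCAO 3. Fosb read 5.88, 5.66 and 5.70 in WT and 6.05, 8.39 and 5.78 in Hsp72Tg, and Npas4 read 8.05, 7.97 and 7.87 against 8.44, 11 and 6.82. In both of these transcription factor genes Hsp72Tg MCAO 2 alone was far above the other MCAO arrays.

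**Figure D5:**
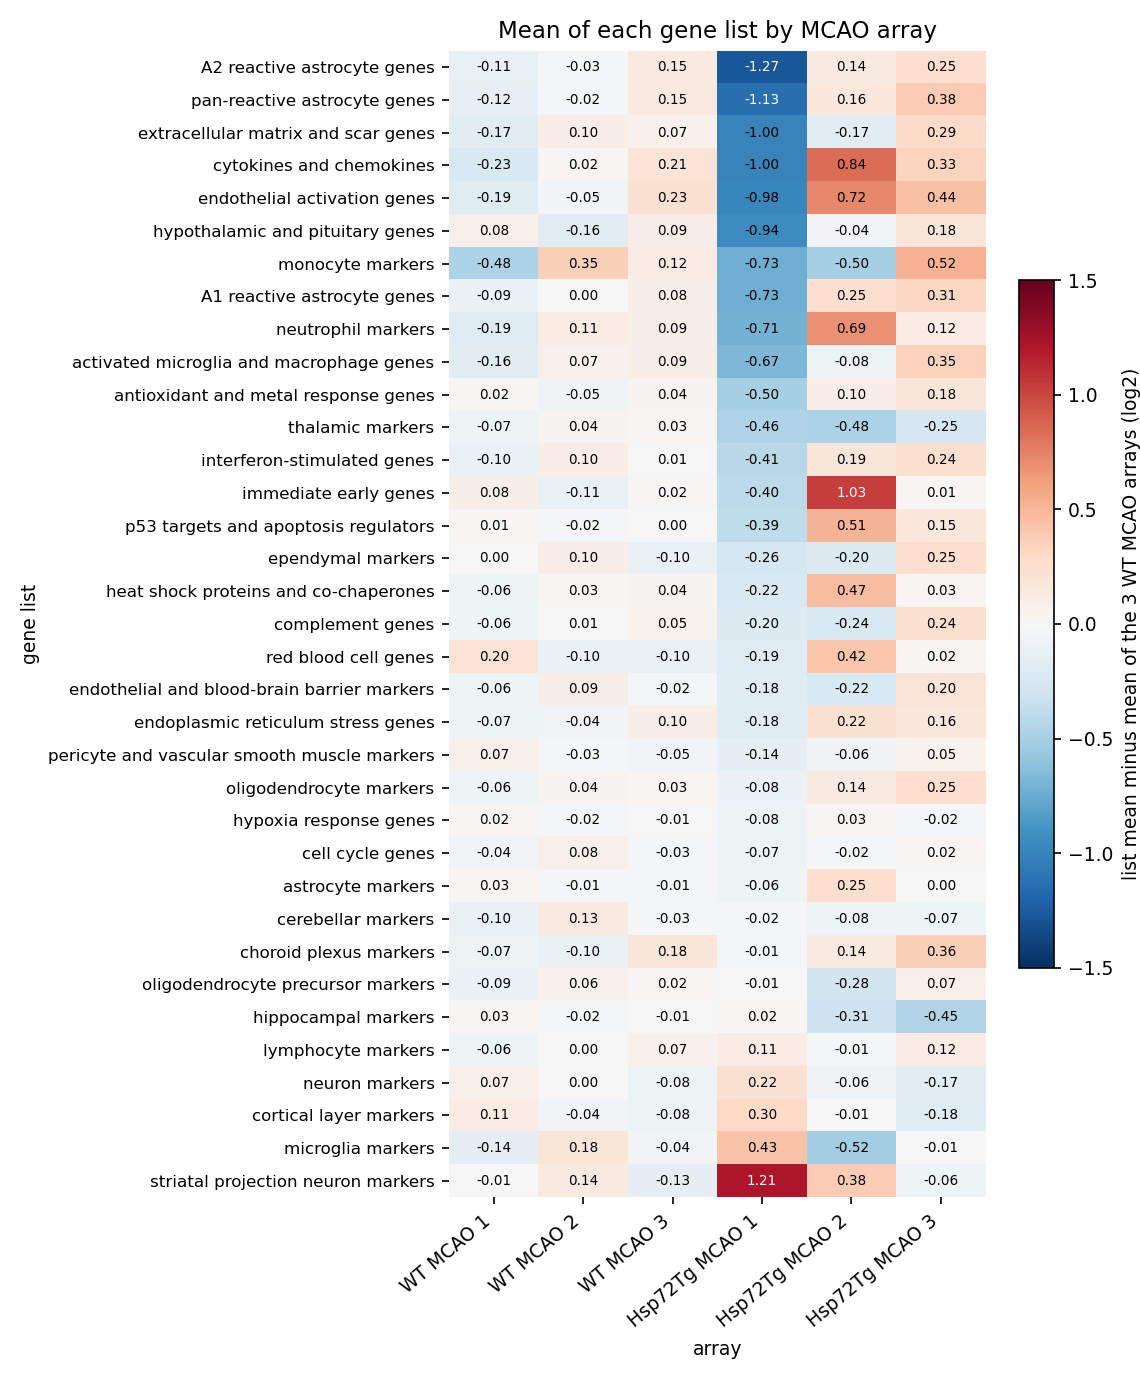
Mean of each gene list (y axis) on each MCAO array (x axis), as the log2 difference from the mean of the 3 WT MCAO arrays, which is also the colour scale. Reactive astrocyte, cytokine and matrix lists reach -0.73 to -1.27 on Hsp72Tg MCAO 1, striatal markers reach 1.21 there, and thalamic markers are below 0 on all 3 Hsp72Tg MCAO arrays.

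A further set of genes was low on Hsp72Tg MCAO 1 and 2 but not on Hsp72Tg MCAO 3, and it was seen when that array was left out. Then 5 genes passed with limma (0.0275%), all lower. That fit was picked among those that left out 1 array, and its adjusted p-values do not account for the choice. Leaving out an array that differs from its group also narrows the spread, so these calls are a description and not independent evidence. Tgm1, a transglutaminase gene of the A2 list, read 8.41, 8.45 and 8.50 in WT and 5.91, 6.60 and 8.61 in Hsp72Tg. Its difference without Hsp72Tg MCAO 3 was -2.20 (SE 0.18, limma adjusted p = 0.0128), and with all arrays -1.41 (SE 0.53, limma adjusted p = 1). Ms4a6d, a macrophage membrane protein gene, read 8.42, 8.30 and 8.38 in WT and 6.24, 6.89 and 8.95 in Hsp72Tg. Ms4a6c of the same family, Capg, which encodes an actin-capping protein of macrophages, and Plce1, a phospholipase C gene, were likewise low on Hsp72Tg MCAO 1 and 2, with differences of -1.24, -1.02 and -0.91 and adjusted p of 0.0491, 0.0491 and 0.0328 in that fit. For all 5, Hsp72Tg MCAO 3 was above every WT MCAO array, and a fit without that array favours genes in which it is apart.

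Outside those 5, 4 macrophage and injury genes, set together here after their values were seen, were likewise lowest on Hsp72Tg MCAO 1 and 2 and within or above the WT range on Hsp72Tg MCAO 3. Ccl12, a monocyte attractant gene, read 8.72, 9.54 and 9 in WT and 7.86, 7.19 and 9.18 in Hsp72Tg. Arg1, the arginase gene of monocytes and macrophages, read 5.60, 7.59 and 7.28 against 4.61, 4.85 and 8.42. Il11, a cytokine gene of the interleukin 6 family, read 8.57, 10.34 and 10.32 against 6.74, 7.84 and 10.55, and Ptx3, a pattern recognition gene, read 7.98, 8.36 and 8.32 against 6.83, 6.98 and 8.26. None of the 4 passed with all arrays, where their differences were -1, -0.86, -1.37 and -0.87. The monocyte list mean was -0.73, -0.50 and 0.52 from the WT MCAO mean on Hsp72Tg MCAO 1, 2 and 3, and -0.48 to 0.35 on the WT MCAO arrays, so that Hsp72Tg MCAO 2 lay level with the lowest WT array. The mean on Hsp72Tg MCAO 2 differed between the other lists. It was 0.84 for the cytokine and chemokine list, which holds Ccl12 and Il11, and -0.08 for activated microglia and macrophage genes. Microglia markers were low there at -0.52 and thalamic markers at -0.48. Complement genes, at -0.2, -0.24 and 0.24 on Hsp72Tg MCAO 1, 2 and 3, were likewise below 0 on Hsp72Tg MCAO 1 and 2 only.

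Among the other blood and glial lists, neutrophil markers had a median of 0.04, which was -0.30 on Hsp72Tg MCAO 1 alone and 0.23 without it, and microglia markers a median of -0.01, or -0.37 without Hsp72Tg MCAO 1. Cx3cr1, the fractalkine receptor gene of microglia, read 9.41, 9.44 and 9.26 in WT and 9.37, 7.91 and 9.39 in Hsp72Tg, so only Hsp72Tg MCAO 2 was apart. Hk2, the hexokinase gene induced by low oxygen, read 8.66, 8.48 and 8.54 against 7.63, 8.12 and 8.14, a difference of -0.59 (SE 0.14, limma adjusted p = 1) without overlap. Among the other 14 hypoxia response genes only Ndrg1 was without overlap, higher by 0.34. Antioxidant, interferon-stimulated, complement, endoplasmic reticulum stress, cell cycle and p53 target lists had medians from -0.07 to 0.11, with -0.02 over all genes. By array they were not alike. Antioxidant genes had a median of -0.34 on Hsp72Tg MCAO 1 alone and 0.13 without it, with 10 of 13 lowest there, and interferon-stimulated genes of -0.38 and 0.13, with 11 of 18 lowest there, beside 20.1% of all genes. The p53 target list mean was 0.51 above the WT MCAO mean on Hsp72Tg MCAO 2. Oligodendrocyte markers had a median of 0.11, with 5 of 11 above all WT MCAO arrays on Hsp72Tg MCAO 2 and 3, beside 9.65% of all genes. Opalin, a myelin gene, read 8.76, 9.05 and 8.86 in WT and 8.04, 9.89 and 9.61 in Hsp72Tg. Extracellular matrix and scar genes had a median of -0.29, or 0.10 without Hsp72Tg MCAO 1, and activated microglia and macrophage genes of -0.02, which was -0.47 on that array alone and 0.07 without it. The monocyte list had a median of -0.18. Lymphocyte, red blood cell, pericyte, choroid plexus, ependymal, oligodendrocyte precursor and cerebellar lists had medians from -0.06 to 0.11. Some of these were uneven by array. Of 9 choroid plexus markers, 4 lay above all WT MCAO arrays on Hsp72Tg MCAO 2 and 3, beside 9.65% of all genes. Lowest on Hsp72Tg MCAO 1 were 5 of 8 ependymal and 5 of 10 pericyte markers, beside 20.1%. Neuron markers had a median of 0.00, with 8 of 15 higher and 7 lower in value. On Hsp72Tg MCAO 1, 10 of the 15 were highest, beside 21.1% of all genes. On Hsp72Tg MCAO 2 and 3, 4 of the 15 lay below all WT MCAO arrays, beside 15.4% of all genes. Camk2a, a kinase gene of excitatory neurons, read 12.02, 12.26 and 11.69 against 12.62, 12.47 and 12.11, a difference of 0.40 (SE 0.18). Nefh and Map2 of the same list went the other way, at -0.28 (SE 0.16) and -0.11 (SE 0.12).

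The largest mean difference of any gene was that of Mid1, a ubiquitin ligase gene, named after its values were seen. It read 10.01, 9.40 and 6.11 in WT and 5.62, 6.49 and 5.40 in Hsp72Tg, a difference of -2.67 (SE 0.90, limma adjusted p = 1). The WT MCAO arrays themselves were far apart, and the third of them lay below Hsp72Tg MCAO 2. After sham surgery Mid1 read 6.01 and 5.46 in WT and 7.69 and 5.59 in Hsp72Tg, so it varied between arrays of 1 group there too.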

How the data were processed

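The deposited values were log2 expression values made by the authors with RMA, per the submitters' processing notes, a method that removes background, puts arrays on a common distribution and merges the probes of each set. Its version is not given in the sources used here. From 45101 probe sets, 64 controls, 932 with several gene symbols and 9160 without a listed symbol were left out. A gene with several probe sets was read from the brightest on average, leaving 18193 genes, 9010 of them with more than 1 probe set. Array medians lay between 6.67 and 6.73.

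limma 3.58.1 in R 4.3.3 fitted a mean per group over all 10 arrays (6 residual degrees of freedom), two-sided, with Benjamini-Hochberg adjustment over all genes and a threshold of 0.05. The fit was tested on simulated data. Named genes were Hspa1a and Hspa1b, those with the smallest p in each direction with and without Hsp72Tg MCAO 1, those past 2-fold in the mean without overlap of the groups, those 2-fold apart on Hsp72Tg MCAO 1 alone, and up to 3 members of each of 33 gene lists by the size of the difference, clone names passed over. Other genes were named after their values were seen, from those lists or from fits that left out an array. The members and lists were chosen with earlier results of these data known, and hippocampal and cortical layer markers, the split of arrays by Cap1 and the count over all 5 arrays of a genotype were added here after seeing values. Lists were described by counts and medians, with no test. Alternatives were other normalizations, probe set rules, spread estimates, thresholds, the replicate block and leaving out each array. The number of arrays limits the precision.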

Additional observations from a re-analysis of the deposited data

Results flagged for a closer look

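In the fit without Hsp72Tg MCAO 1, 2 of 18193 genes (0.011%) differed between the surgeries in their Hsp72Tg minus WT difference with limma. For Cap1 the difference of the contrasts, MCAO minus sham, was -4.52 (SE 0.15, adjusted p = 1.1e-06), and for Tmem87a it was -1.96 (SE 0.18, adjusted p = 0.0111). Both were high on the 2 Hsp72Tg sham arrays and low on Hsp72Tg MCAO 2 and 3, as on the WT arrays. With Hsp72Tg MCAO 1 in the fit, which read like the Hsp72Tg sham arrays in both genes, 0 genes passed this contrast and 319 had an unadjusted p under 0.05. What sets these values was not tested.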

How the results depend on the processing

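The number of genes that passed after MCAO was 0 with limma under the alternatives that kept all arrays, and 0 to 5 over the fits that left out 1 array, with the 5 calls all in the fit without Hsp72Tg MCAO 3. The difference between the surgeries passed 0 to 2 genes when 1 array was left out: Cap1 and Tmem87a without Hsp72Tg MCAO 1, and Gabra6 and Pcp2 without WT sham 2, which leaves WT sham 1, high in both, as the only WT sham array. The 4 genes without overlap and with a mean difference past 2-fold were 2 with the mean over probe sets. With the replicate block 0 genes passed. Same-numbered MCAO arrays deviated with r of 0.05, -0.16 and 0.25, which shows no clear pairing by number but cannot exclude one. Of 1533 values of 82 named genes, 1481 kept their sign, and the sign turned in 26 genes, none of which passed in the fit of all arrays. With a mean per group, leaving out a sham array or changing only the spread estimate cannot change the difference after MCAO. Such values were bound to keep their sign, so the count is not a measure of robustness. For the same reason, values without both Hsp72Tg MCAO 1 and WT sham 1 repeat those without Hsp72Tg MCAO 1. Leaving out 1 array moved the difference over -0.24 to 1.90 for Cap1, -0.41 to 0.70 for Gpr34, -0.08 to 0.66 for Syndig1l, -0.13 to 0.67 for Pde10a, -0.40 to 0.57 for P2ry12, -1.90 to 0.53 for Il6, -1.40 to 1.20 for Lcn2, -1.54 to 0.79 for S100a8, -1.57 to 0.78 for S100a9, -1.10 to 0.77 for Emp1, -0.77 to 2.44 for Cxcl2, -1.02 to 0.62 for Cd14, -0.26 to 1.11 for Gadd45b, -0.88 to 0.12 for Cd44, -0.50 to 1.42 for Icam1, -0.18 to 1.03 for Plaur, -0.73 to 0.01 for Cx3cr1, -0.33 to 1.76 for Npas4, -0.07 to 0.86 for Opalin, -0.16 to 0.96 for Dnajb1, -0.40 to 0.05 for Gfap, -0.62 to 0.39 for Avp, -0.41 to 0.44 for Cartpt, -0.11 to 0.05 for Hsp90aa1 and -0.02 to 0.08 for Hspa8. Without both Hsp72Tg MCAO 1 and WT sham 1 it was -0.24 for Cap1, -0.41 for Gpr34, -0.08 for Syndig1l, -0.13 for Pde10a, -0.40 for P2ry12, 0.53 for Il6, 1.20 for Lcn2, 0.79 for S100a8, 0.78 for S100a9, 0.77 for Emp1, 0.62 for Cd14, 0.12 for Cd44, 0.39 for Avp, 0.44 for Cartpt and -0.02 for Hspa8. It was also -0.05 for P2ry12 with arrayWeights, 0.01 for Lcn2 with arrayWeights, 0.01 for Tcf7l2 with median centring, 0.22 for Cartpt with arrayWeights, 0.00 for Cartpt with quantile normalization, 0.04 for Hsp90aa1 with median centring, 0.01 for Hsp90aa1 with mean over probe sets, 0.00 for Hspa8 with arrayWeights and -0.02 for Hspa8 with quantile normalization. Beyond the arrays left out, the cause was not tested. No detection call per probe set was used, so a low value may lie at background.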
